A study of Mus musculus with 10 samples.

Results

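Genes of potassium and voltage-gated sodium channel subunits were examined in RNA from Neuro-2a cells (a line from a mouse neuroblastoma, able to take on neuron-like features) after knockdown of Sfpq. They were chosen by name: every symbol that starts with Kcn, or with Scn followed by a number, each represented by its transcript row with the highest mean over all 8 libraries. This gave 110 of the 23553 genes in the files. Of these, 106 encode channel subunits, and 4 do not (the noncoding Kcnq1ot1, Kcnd3os and Kcnmb4os1, and Kcnrg, a gene named as a potassium channel regulator). Both groups of cells were expanded in medium with 10% fetal calf serum and then reverse-transfected with Stealth siRNA and RNAiMAX in medium with 2% serum, which the labels call a differentiated condition. Control cells (Luc) received siRNA against luciferase, which mouse cells lack, and knockdown cells (Sfpq) received siRNA against mouse Sfpq, a nuclear RNA- and DNA-binding protein. Poly(A)-selected RNA was measured in 3 libraries per group, and RNA after removal of ribosomal RNA (rRNA) in 1 library per group. The strain is given as C57BL/6+C57BL/6J+CBA for all of them. A single cell line was used, no time after transfection is given, and the labels do not say whether replicates were separate cultures, and p-values therefore measure only a spread between libraries that may be technical.

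Potassium channels let potassium leave the cell and so hold or restore a negative membrane potential, while voltage-gated sodium channels carry the inward current that starts an action potential. The pore of either kind is built from alpha subunits, and auxiliary subunits that form no pore change gating, traffic and surface density. Neurons combine many of these genes at once: Kv channels repolarise the membrane, Kv7 and ERG channels set excitability near rest, calcium-activated channels shape the afterpotential, and inward rectifiers and two-pore-domain channels hold the resting potential.

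The unit is RPKM, a read number divided by transcript length and library size, so levels can be compared between genes on a per-length scale. RPKM does not give the absolute depth. From the step size of low values, relative depth was estimated, which put the poly(A) libraries at 0.628 (Sfpq replicate 1) to 1.28 (Luc replicate 3) times the depth of Luc replicate 1, and those of rRNA-depleted RNA at 2.64 and 2.65 times. Sfpq RNA itself was 56.8, 60.8 and 73.0 RPKM in Luc libraries and 3.98, 4.75 and 6.47 after Sfpq knockdown, 7.97% of the Luc mean (log2 fold change -3.54, standard error 0.17, limma adjusted p = 1.56e-06), and 30.8 RPKM with Luc and 4.43 with Sfpq siRNA in rRNA-depleted RNA. These values belong to the higher of 2 Sfpq transcript rows, which carries a noncoding RefSeq identifier. With the mean of all Sfpq rows the poly(A) log2 fold change was -3.47. Of 12 written neuronal and neuroblast markers, 11 reached 0.5 RPKM in poly(A) RNA; 5 fell and 3 rose, and their summed level was 889 to 1075 RPKM in Luc and 870.4 to 929 in Sfpq libraries. Of 8 glial markers 2 reached it (Mbp among them; Aqp4, Sox10 and S100b were listed at 0), with sums of 1.77 to 1.97 RPKM in Luc and 1.81 to 2.02 in Sfpq libraries, and 0 were called. Of 10 fibroblast and muscle markers 4 reached it (Pdgfra, Acta2, Des and Myh3; Lum was listed at 0), with sums of 23.2 to 25.0 and 23.2 to 27.7 RPKM, and Acta2 fell. Of 7 immune and endothelial markers in the files Pecam1 alone reached it, and fell (sums 1.76 to 2.07 and 0.949 to 1.53 RPKM; Kdr was listed at 0). The part of these markers in the channel results was not tested, and in bulk RNA fewer cells of a kind and less RNA per cell cannot be told apart. Luc replicates 1 and 2 correlated at 0.9958 over the tested genes, and Luc replicate 3 correlated less with them, at 0.9846 and 0.9786.

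A few promoters are shown from the 6 called genes with a single start in the table used, with both directions of change. They are those of Kcnmb4 and Kcnn3, which fell after Sfpq knockdown, and of Kcnh6 and Kcnj9, which rose. Each runs 5′ to 3′ on the gene's strand, from 250 bases before to 50 after the start, as RefSeq gives it on GRCm38.p6. This build differs from that of the RNA values, mm9, and no RNA value was read by position. The places are chr10:116473474-116473773, minus strand (Kcnmb4), chr3:89519914-89520213, plus strand (Kcnn3), chr11:106007898-106008197, plus strand (Kcnh6) and chr1:172329273-172329572, minus strand (Kcnj9). Capitals mark matches on either strand to GGGCGG, the letters of the GC box bound by Sp-family factors, and to TATAAA, those of the TATA box.
Kcnmb4: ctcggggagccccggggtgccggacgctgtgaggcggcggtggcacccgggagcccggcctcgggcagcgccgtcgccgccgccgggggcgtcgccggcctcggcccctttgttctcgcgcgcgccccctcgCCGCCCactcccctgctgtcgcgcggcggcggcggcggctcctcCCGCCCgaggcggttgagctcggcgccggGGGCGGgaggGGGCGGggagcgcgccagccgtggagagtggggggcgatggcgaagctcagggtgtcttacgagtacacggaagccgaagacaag
Kcnn3: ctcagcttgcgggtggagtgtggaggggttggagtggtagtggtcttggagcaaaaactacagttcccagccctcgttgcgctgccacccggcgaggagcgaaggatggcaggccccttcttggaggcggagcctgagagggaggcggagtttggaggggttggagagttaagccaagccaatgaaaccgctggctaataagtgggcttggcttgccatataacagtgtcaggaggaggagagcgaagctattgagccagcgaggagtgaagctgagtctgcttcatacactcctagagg
Kcnh6: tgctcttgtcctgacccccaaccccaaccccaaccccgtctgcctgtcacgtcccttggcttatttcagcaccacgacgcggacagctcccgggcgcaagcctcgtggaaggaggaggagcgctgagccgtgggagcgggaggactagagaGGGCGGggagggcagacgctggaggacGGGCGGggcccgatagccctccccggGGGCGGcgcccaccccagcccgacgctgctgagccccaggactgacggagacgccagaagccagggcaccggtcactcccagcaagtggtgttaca
Kcnj9: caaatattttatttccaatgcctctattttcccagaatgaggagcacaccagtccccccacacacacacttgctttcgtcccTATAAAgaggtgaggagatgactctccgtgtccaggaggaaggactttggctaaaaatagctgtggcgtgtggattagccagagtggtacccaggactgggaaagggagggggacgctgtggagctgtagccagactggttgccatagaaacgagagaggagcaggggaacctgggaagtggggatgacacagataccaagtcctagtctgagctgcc

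GGGCGG occurred at 4 places in the Kcnmb4 promoter and at 3 in that of Kcnh6, and at 0 in those of Kcnn3 and Kcnj9. At least 1 such match was present in 35.7% of all 32851 promoters of this length. TATAAA occurred at 1 place, in Kcnj9, and in 13.6% of all promoters. In Kcnj9 it began at base 83 of the 300 printed, away from bases 221 and 222, where TATAAA most often began in promoters on the plus and minus strands. The motifs share no end letters and cannot overlap each other. The dinucleotide CG was counted 48 times for Kcnmb4, 24 for Kcnh6, 11 for Kcnn3 and 5 for Kcnj9, with a median of 7 over all promoters. Kcnmb4 and Kcnh6, which moved in opposite directions, both had GGGCGG matches, and Kcnn3 and Kcnj9 had none. Among the called genes with a single start whose promoters are not printed, Kcnh2 had GGGCGG at 3 places and Kcnj12 at 0. Both of those genes rose.

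Most of the 110 genes had low values. A mean of at least 0.5 RPKM was reached by 27 in poly(A) RNA, by 23 in rRNA-depleted RNA and by 22 in both, so that 28 reached it in either. Kcnab3, Kcnd1, Kcnj14, Kcnn1 and Kcnq5 reached it in poly(A) RNA alone, and the two-pore-domain gene Kcnk12 in rRNA-depleted RNA alone. Of the 82 others, 28 were listed at 0 in all 8 libraries (11 of the 27 Kv alpha genes of the Kv1 to Kv4 and silent families, 2 of 13 in the Kv7, EAG, ERG and ELK families, 5 of 15 inward rectifiers, 2 of 14 two-pore-domain genes, 5 of 16 auxiliary genes, 1 of 4 sodium channel beta subunits and 2 that encode no subunit). The other 54 had some signal, with means of up to 0.345 RPKM in poly(A) and 0.451 in rRNA-depleted RNA. None of the 4 genes that encode no subunit reached 0.5 RPKM in either preparation. A stricter reading, at least 0.5 RPKM in every poly(A) library, left 15. Kcnh6, Kcnj9, Kcnj14, Kcnn1 and Kcnk5 had Luc means under 0.5 RPKM and passed through their Sfpq libraries, while others, Kcnn3 and Kcnq5 among them, had Sfpq means under 0.5 RPKM and passed through their Luc libraries. A gene that passes only through its higher group is in part chosen for a difference, so these calls are given gene by gene and are not support for a trend. Just inside the threshold lay Kcnq5 and Kcnk5 (means 0.523 and 0.534 RPKM over the 6 poly(A) libraries), and just outside it Kcnmb2 (0.345) and Kcnk12 (0.276).

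In control cells the highest level belonged to Kcnh2, the ERG channel best known for the rapid delayed rectifier current of the heart, at 17.7 ± 3.26 RPKM (SD, n = 3). Among the genes reported here it was followed by Kcnab2, a cytoplasmic Kv beta subunit (12.0 ± 2.53), Kcnk3, the acid-sensitive leak channel TASK-1 (8.27 ± 1.60), Kcnmb4, the neuronal beta subunit of the large-conductance calcium-activated (BK) channel (7.42 ± 1.101), the sodium channel beta subunit Scn3b (5.49 ± 1.05) and the Kv beta subunit Kcnab1 (5.13 ± 0.635). In this order the mean ± SD ranges of all neighbours overlapped. In Sfpq libraries Kcnh2 (23.5 ± 1.21), Kcnk3 (11.04 ± 1.00) and Kcnab2 (7.03 ± 0.412) led, followed by Kcnh4 (4.47 ± 0.596) and Kcnn2 (3.51 ± 0.714). Kcnmb4 and Kcnab1 had left the upper part of the order.

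**Figure D1:**
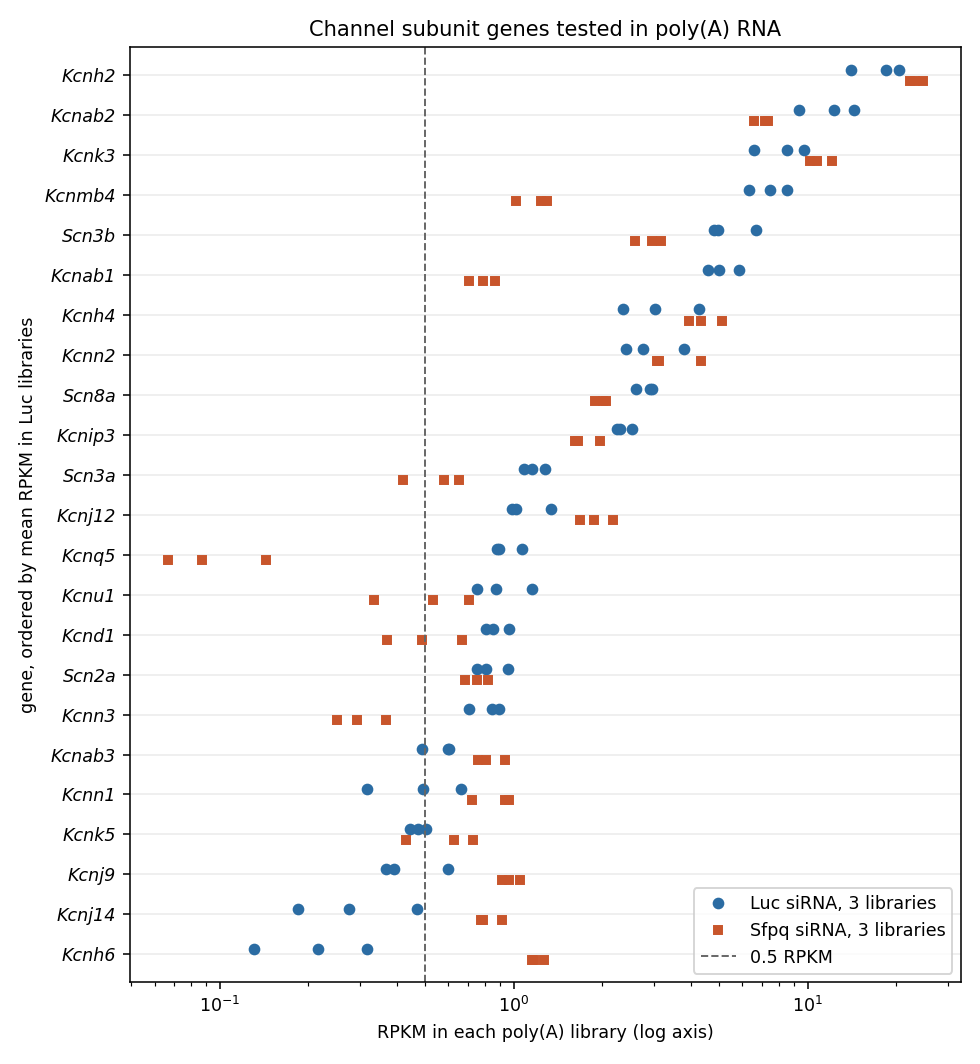
RPKM of 23 of the 27 genes tested in poly(A) RNA, on a log axis, ordered by their mean in Luc libraries; circles are the 3 Luc and squares the 3 Sfpq libraries, and the dashed line marks 0.5 RPKM. Kcnmb4 and Kcnab1 moved from between 4.58 and 8.52 RPKM in Luc to between 0.705 and 1.30 in Sfpq libraries, while Kcnh6 moved from at most 0.318 to at least 1.15.

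The main comparison asks which of these genes differ between Sfpq and Luc libraries of poly(A) RNA. Of the 27 tested, 12 fell, 6 rose and 9 did not pass (limma on log2(RPKM + 0.5) over 11727 genes, Benjamini-Hochberg adjusted p under 0.05). Over all genes tested, 18.6% were called lower and 21.3% higher. For the channel genes these shares were 44.4% and 22.2%, so the higher share was near the background. At an unadjusted p under 0.05 the counts were 12 lower and 9 higher. The median log2 fold change was 0.10, against 0.05 over all genes, so its sign was positive although more genes fell than rose, and it was -0.13 without Sfpq replicate 2; the median size of the change, regardless of sign, was 0.48 against 0.30. All 3 Sfpq libraries lay below all 3 Luc libraries for 12 of the 27 genes (24.7% of all tested genes) and above them for 10 (28.2%). By at least 2-fold on this scale, 4 of the called genes fell (Kcnmb4, Kcnab1 and Kcnq5 among them; 4.73% of all tested genes) and 1 rose (Kcnh6; 2.3%). Leaving out single libraries took the lower calls to between 6 (without Luc replicate 1) and 10, and the higher calls to between 3 (without Sfpq replicate 2 or 3) and 8. Calls that held in every alternative in which the gene was tested included those of Kcnab1, Kcnmb4, Kcnq5, Kcnn3, Scn3a and Scn3b, which fell, and of Kcnh6, Kcnj9 and Kcnj14, which rose. Kcnab1 and Kcnmb4 were tested in 16 alternatives, Kcnn3 and Kcnj14 in 14 and Kcnq5 in 12. Kcnq5 was under the level filter whenever a Luc library was left out, so its call was not checked against the loss of a control. The same held for Kcnn3 without Luc replicate 1 and for Kcnj14 without Sfpq replicate 2.

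**Figure D2:**
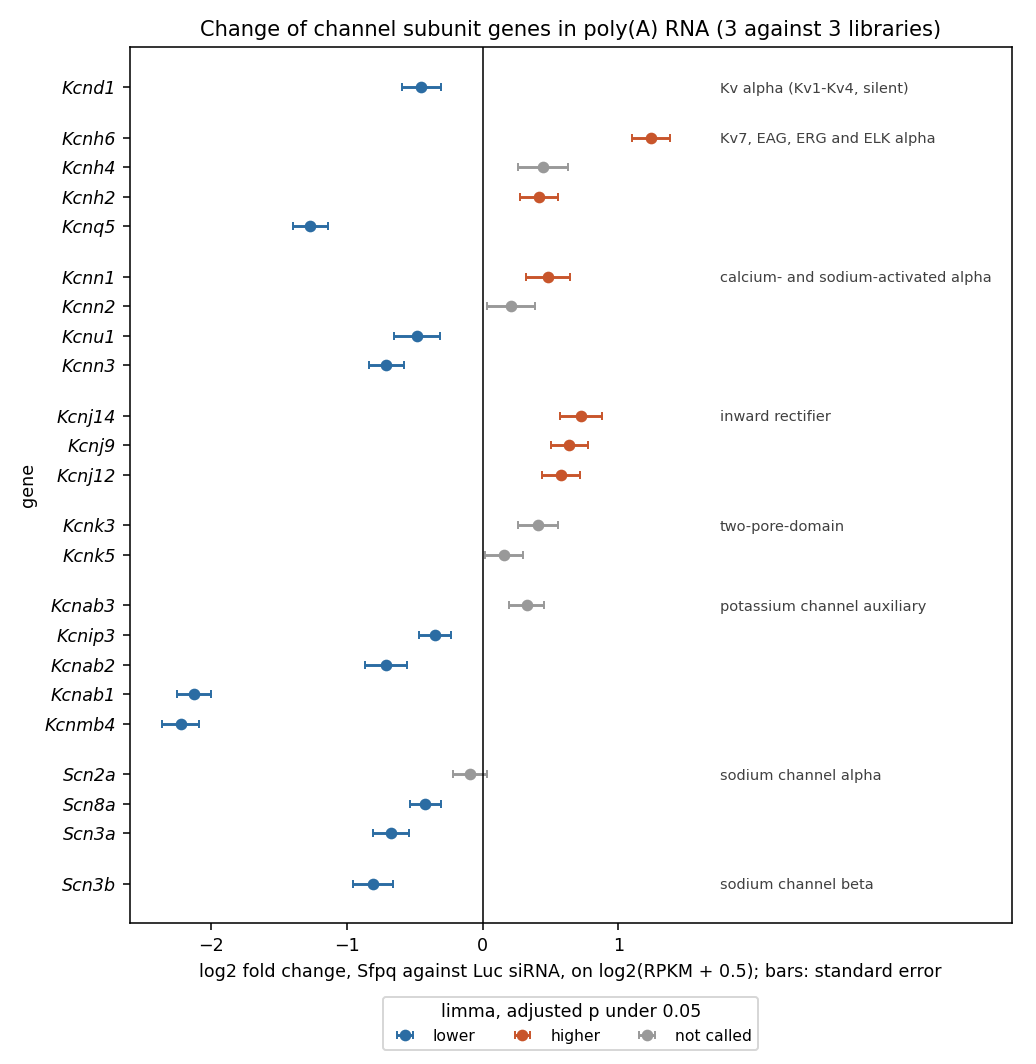
Log2 fold change of 23 of the 27 tested genes in poly(A) RNA, Sfpq against Luc, on log2(RPKM + 0.5), grouped by subunit class; points are fitted values from 3 against 3 libraries, bars are standard errors, and colours mark limma calls. The auxiliary genes Kcnmb4 (-2.23) and Kcnab1 (-2.13) lie farthest to the left, and all 3 tested inward rectifiers lie to the right of 0.

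Auxiliary potassium channel subunits held the largest falls on the log2(RPKM + 0.5) scale, although the share left in RPKM was lowest for the alpha subunit gene Kcnq5. Of 16 such genes in the files 5 were tested; 4 fell, 0 rose and 1 did not pass. Kcnmb4, whose product slows the gating of BK channels and makes them resistant to some toxins, had 7.44, 8.52 and 6.32 RPKM in Luc libraries and 1.24, 1.02 and 1.30 after Sfpq knockdown. The groups were far apart, and the Sfpq mean was 16.0% of the Luc mean (log2 fold change -2.23, standard error 0.14, limma adjusted p = 5.07e-06). Kcnab1, which gives rapid inactivation to Kv1 channels, had 4.58, 4.99 and 5.83 RPKM in Luc libraries and 0.705, 0.865 and 0.783 after Sfpq knockdown. Again no library of one group came near the other, with 15.3% of the Luc mean left (log2 fold change -2.13, standard error 0.13, limma adjusted p = 4.39e-06). Its paralogue Kcnab2, known for aiding the surface traffic of Kv1 channels, fell less, from 12.3, 14.4 and 9.34 to 7.18, 7.35 and 6.57 RPKM. Here the groups were separate but Luc replicate 3 was the lowest control, and 58.6% remained (log2 fold change -0.71, standard error 0.15, limma adjusted p = 0.00531; 0.0573 with no filter on low values). The third paralogue, Kcnab3, had 0.602, 0.486 and 0.6001 RPKM in Luc libraries and 0.803, 0.753 and 0.937 after Sfpq knockdown, all Sfpq values being above all Luc values, but it did not pass (log2 fold change 0.32, standard error 0.13, limma adjusted p = 0.0671). Kcnip3, which encodes KChIP3, a calcium-binding partner of Kv4 channels also known as the transcriptional repressor DREAM, fell from 2.52, 2.25 and 2.30 to 1.61, 1.96 and 1.66 RPKM (log2 fold change -0.35, standard error 0.12, limma adjusted p = 0.0426). That call ended when Luc replicate 1, Luc replicate 2 or any 1 of the Sfpq libraries was left out (adjusted p 0.0603 to 0.152), with the replicate block (0.0594) and with no filter (0.0805). Summed over the 16 auxiliary genes, the level was 28.3 ± 2.94 RPKM with Luc and 11.7 ± 0.333 with Sfpq siRNA (SD, n = 3).

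Among Kv alpha subunits of the Kv1 to Kv4 and silent families, 27 genes were in the files and 3 were tested; 2 fell and 1 did not pass. Kcnd1, the A-type channel Kv4.1, had 0.802, 0.853 and 0.960 RPKM in Luc libraries and 0.370, 0.489 and 0.667 after Sfpq knockdown (log2 fold change -0.45, standard error 0.14, limma adjusted p = 0.0321). The groups did not overlap, but the call ended without Luc replicate 1, Luc replicate 2, Sfpq replicate 1 or Sfpq replicate 2 (adjusted p 0.0609 to 0.1003) and with no filter (0.0854).

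Kv7, EAG, ERG and ELK alpha subunits moved in both directions. Of 13 genes 5 were tested, of which 1 fell and 2 rose. Kcnq5 (Kv7.5), a subunit of M-channels, had 0.895, 0.875 and 1.07 RPKM in Luc libraries and 0.0665, 0.0869 and 0.144 after Sfpq knockdown. It was the gene with the lowest share left among those tested, 10.5% of the Luc mean (log2 fold change -1.27, standard error 0.13, limma adjusted p = 8.66e-05); the added 0.5 RPKM makes the log2 value smaller than that share. Kcnh6, the ERG2 channel, rose from 0.130, 0.318 and 0.216 to 1.15, 1.27 and 1.17 RPKM. It went from under 0.5 RPKM in every Luc library to above it in every Sfpq library, 5.40-fold on average in RPKM (log2 fold change 1.24, standard error 0.14, limma adjusted p = 0.00014). The far more abundant Kcnh2 (ERG1) had 18.4, 20.5 and 14.1 RPKM in Luc libraries and 22.4, 24.8 and 23.3 after Sfpq knockdown, 1.33-fold on average (log2 fold change 0.42, standard error 0.14, limma adjusted p = 0.0395). This smaller rise lost its call without Luc replicate 1 or any 1 of the Sfpq libraries (adjusted p 0.0706 to 0.136), with median-ratio scaling (0.0772) and with no filter (0.163). Kcnh4, an ELK channel, had 3.02, 4.27 and 2.36 RPKM in Luc libraries and 3.94, 5.12 and 4.35 after Sfpq knockdown, overlapping groups that did not pass (log2 fold change 0.44, standard error 0.19, limma adjusted p = 0.0839); it passed with the replicate block (0.0297) and without Luc replicate 2 (0.0118).

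Calcium- and sodium-activated channels were tested for 4 of 8 genes, and the small-conductance (SK) genes, whose channels open with calcium bound to calmodulin, differed among themselves. Kcnn3 (SK3) fell from 0.895, 0.843 and 0.706 to 0.2503, 0.293 and 0.368 RPKM. Its groups were wide apart, with 37.3% of the Luc mean left (log2 fold change -0.71, standard error 0.13, limma adjusted p = 0.00242). Kcnn1 (SK1) had 0.318, 0.664 and 0.493 RPKM in Luc libraries and 0.723, 0.967 and 0.937 after Sfpq knockdown, the reverse direction (log2 fold change 0.48, standard error 0.16, limma adjusted p = 0.0379). That call was lost without any 1 of Luc replicate 1 and Sfpq replicates 2 and 3 (adjusted p 0.115 to 0.141) and with no filter (0.131). Kcnn2 (SK2), the most abundant of them, had 3.80, 2.41 and 2.75 RPKM in Luc libraries and 4.34, 3.13 and 3.07 after Sfpq knockdown, with overlap between the groups and no call (log2 fold change 0.21, standard error 0.18, limma adjusted p = 0.377). Kcnu1, the SLO3 channel known from sperm and placed here by its relation to BK, had 0.749, 0.873 and 1.16 RPKM in Luc libraries and 0.335, 0.531 and 0.706 after Sfpq knockdown (log2 fold change -0.48, standard error 0.17, limma adjusted p = 0.0492). Its call lay at the edge of the threshold and ended without any 1 of the libraries other than Sfpq replicate 3 (adjusted p 0.0514 to 0.154), with a pseudocount of 0.1 (0.0527) and with no filter (0.181).

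Inward rectifiers, which pass current more readily into than out of the cell, had 3 tested genes of 15, and all 3 rose. Kcnj9 (GIRK3), a subunit of G-protein-gated channels, had 0.392, 0.599 and 0.367 RPKM in Luc libraries and 0.965, 1.05 and 0.915 after Sfpq knockdown. Each Sfpq value was above each Luc value, 2.16-fold on average (log2 fold change 0.64, standard error 0.14, limma adjusted p = 0.00546). Kcnj12 (Kir2.2), a strong rectifier, had 1.02, 1.34 and 0.988 RPKM in Luc libraries and 1.68, 1.87 and 2.18 after Sfpq knockdown (log2 fold change 0.58, standard error 0.14, limma adjusted p = 0.00971). It lost its call without Sfpq replicate 3 (adjusted p = 0.05001) and with no filter (0.0558). Kcnj14 (Kir2.4) had 0.470, 0.275 and 0.184 RPKM in Luc libraries and 0.772, 0.912 and 0.785 after Sfpq knockdown (log2 fold change 0.72, standard error 0.15, limma adjusted p = 0.00536). As Kcnj9 and Kcnj14 passed the level filter through their Sfpq libraries, a shared direction of the tested genes of this class is partly set by the filter; Kcnj6, under the filter, went the other way. Two-pore-domain leak channels had 2 tested genes of 14 and no call. Kcnk3 had 8.51, 9.74 and 6.56 RPKM in Luc libraries and 10.2, 12.2 and 10.8 after Sfpq knockdown; every Sfpq value was above every Luc value, but the adjusted p was just over the threshold (log2 fold change 0.41, standard error 0.15, limma adjusted p = 0.0524), and it passed with the replicate block (0.028) and without Luc replicate 2 (0.0193). Kcnk5 (TASK-2) had 0.474 ± 0.0303 RPKM in Luc libraries and 0.594 ± 0.151 after Sfpq knockdown (SD, n = 3; limma adjusted p = 0.395).

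All 3 called sodium channel genes fell. Of 9 alpha subunit genes 3 were tested, and 2 fell. Scn3a (Nav1.3), an alpha subunit typical of immature neurons, had 1.16, 1.08 and 1.28 RPKM in Luc libraries and 0.420, 0.652 and 0.578 after Sfpq knockdown. Its groups were separate, with 46.9% of the Luc mean left (log2 fold change -0.68, standard error 0.13, limma adjusted p = 0.00365). Scn8a (Nav1.6), the main alpha subunit at mature nodes and initial segments, had 2.92, 2.96 and 2.61 RPKM in Luc libraries and 1.89, 2.01 and 2.06 after Sfpq knockdown. It kept 70.2% (log2 fold change -0.42, standard error 0.11, limma adjusted p = 0.0155), and its call was lost without any 1 of Luc replicate 1 and Sfpq replicates 2 and 3 (adjusted p 0.0505 to 0.0664). Scn2a (Nav1.2) had 0.748, 0.807 and 0.956 RPKM in Luc libraries and 0.685, 0.819 and 0.752 after Sfpq knockdown, overlapping groups with no call (log2 fold change -0.09, standard error 0.13, limma adjusted p = 0.585). Of the 4 beta subunit genes, which encode adhesion-like membrane proteins that modulate the alpha subunits, 2 were tested. Scn3b fell from 4.82, 4.95 and 6.70 to 2.58, 3.16 and 2.95 RPKM. Luc replicate 3 was the highest control, and without it the fall was still called (log2 fold change -0.81, standard error 0.15, limma adjusted p = 0.00224; the adjusted p ranged from 0.000602 to 0.0316 over all alternatives). The other tested one was not called.

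Channel genes with a poly(A) mean under 0.5 RPKM were compared in a fit with no filter on low values, over 23553 genes, in which 7.62% of genes were called lower and 7.82% higher. In that fit 9 of the 83 channel genes under the filter were lower and 0 higher, and of the 27 tested genes 8 were lower and 3 higher. The 7.62% and 7.82% also cover genes above the filter, and shares for genes under it alone are not given here. Values follow for the genes with the 6 highest poly(A) means among those under the filter. Kcnmb2, another BK beta subunit, had 0.580, 0.447 and 0.965 RPKM in Luc libraries and 0.0225, 0.0121 and 0.0394 after Sfpq knockdown (log2 fold change -1.13, SE 0.17, limma adjusted p = 0.0194 with no filter). Kcnma1, the pore-forming BK alpha subunit itself, had 0.384, 0.428 and 0.382 RPKM in Luc libraries and 0, 0.0647 and 0.0319 after Sfpq knockdown (log2 fold change -0.76, SE 0.05, limma adjusted p = 0.00251 with no filter). In both genes every Sfpq library was below every Luc library. Kcnj6 (GIRK2), a partner of GIRK3, had 0.544, 0.531 and 0.364 RPKM in Luc libraries and 0, 0.0345 and 0.0187 after Sfpq knockdown (log2 fold change -0.92, SE 0.09, limma adjusted p = 0.00548 with no filter), the opposite direction to Kcnj9. Kcnk1 (TWIK-1), a two-pore-domain channel, had 0.341, 0.504 and 0.450 RPKM in Luc libraries and 0.0571, 0.0154 and 0.0333 after Sfpq knockdown (log2 fold change -0.80, SE 0.08, limma adjusted p = 0.00576 with no filter). Kcnh3, an ELK channel, had 0.208, 0.283 and 0.190 RPKM in Luc libraries and 0.110, 0.0395 and 0.0535 after Sfpq knockdown (log2 fold change -0.36, SE 0.07, limma adjusted p = 0.0386 with no filter), opposite to the call for Kcnh6. Kcnk12 had 0.466, 0.576 and 0.183 RPKM in Luc libraries and 0.0674, 0.127 and 0.236 after Sfpq knockdown, with overlap and no call (limma adjusted p = 0.246 with no filter). A value listed at 0 does not show that the gene was silent. When a mean of 0.5 RPKM in either group sufficed, a choice made after seeing the data, Kcnmb2 joined the tested genes and the count of falls was 13.

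**Figure D3:**
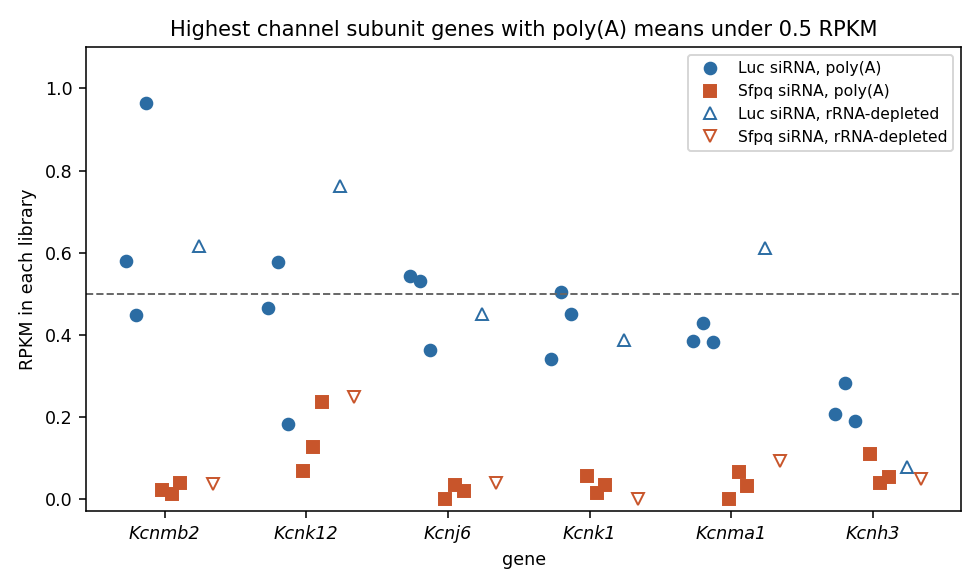
RPKM in each library of the 6 highest channel genes with a poly(A) mean under 0.5 RPKM; filled circles and squares are poly(A) libraries with Luc and Sfpq siRNA, open triangles the rRNA-depleted libraries, and the dashed line marks 0.5 RPKM. For Kcnmb2, Kcnj6, Kcnk1 and Kcnma1 all 3 Sfpq poly(A) libraries lie between 0 and 0.0647 RPKM and all 3 Luc libraries at or above 0.341.

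Several channel genes have more than 1 transcript row: 29 of the 110, and 7 of the 27 tested. For the 7 tested genes, the rows of a gene gave nearly the same values, so they do not separate isoforms. The 4 rows of Kcnab2 kept 58.2% to 58.7% of their Luc means, the 3 rows of Scn3b 52.6% to 53.4%, and both rows of Kcnq5 10.4% and 10.5%. For Kcnma1, with 22 rows, Luc means ran from 0.303 to 0.398 RPKM and Sfpq means from 0.0306 to 0.0326. Rows differed more for some low genes: the 4 rows of Kcnj6 had Luc means of 0.480, 0.417, 0.318 and 0 RPKM. How reads shared by several rows were counted is not given in the sources used here.

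RNA depleted of rRNA, which also holds transcripts without a poly(A) tail, was measured in 1 library per group, so its differences have no replicate check and are given as values. Of the 23 channel genes at or above 0.5 RPKM, 2 were at least 2-fold lower and 1 at least 2-fold higher on the log2(RPKM + 0.5) scale, against 5.18% and 1.65% of 11386 genes. Those 3 genes were ones already called in poly(A) RNA. Kcnmb4 had 6.02 RPKM with Luc and 1.101 with Sfpq siRNA (log2 ratio -2.03), Kcnab1 4.01 RPKM with Luc and 0.746 with Sfpq siRNA (-1.86) and Kcnh6 0.181 RPKM with Luc and 0.874 with Sfpq siRNA (1.01). Kcnn3 (0.996 RPKM with Luc and 0.331 with Sfpq siRNA) and Scn3a (1.32 RPKM with Luc and 0.619 with Sfpq siRNA) were lower by less than 2-fold on that scale. Kcnq5, with a mean under the filter, had 0.842 RPKM with Luc and 0.0878 with Sfpq siRNA. With a pseudocount of 0.1 RPKM in place of 0.5, 6 genes were at least 2-fold lower. The median log2 ratio of the 23 was -0.24, against -0.02 over all genes past the filter.

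The direction was the same in both preparations for 19 of the 22 genes that reached 0.5 RPKM in each (86.4%, against 86.7% of all 11208 such genes), and for all 14 called ones among them. Across the 22 genes the poly(A) change and the rRNA-depleted ratio had a Pearson correlation of 0.96, and 0.94 across all 11208; genes share libraries and are not replicates, so this describes these libraries only. The 3 genes with different signs, Scn2a and Kcnn2 among them, were not called in poly(A) RNA. Kcnn2 had 2.08 RPKM with Luc and 1.48 with Sfpq siRNA (log2 ratio -0.38) and Scn2a 1.12 RPKM with Luc and 1.28 with Sfpq siRNA (0.13). Among the low-level genes, Kcnma1 had 0.612 RPKM with Luc and 0.0932 with Sfpq siRNA, Kcnmb2 0.617 and 0.0374, Kcnj6 0.451 and 0.0380, and Kcnk1 0.388 and 0. For each of these 4 genes the Sfpq library again had the lower value. The noncoding RNA Kcnq1ot1, named after its values were seen, was at 0.296 and 0.607 RPKM, above its values in any poly(A) library (0.0267 to 0.0683 RPKM).

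**Figure D4:**
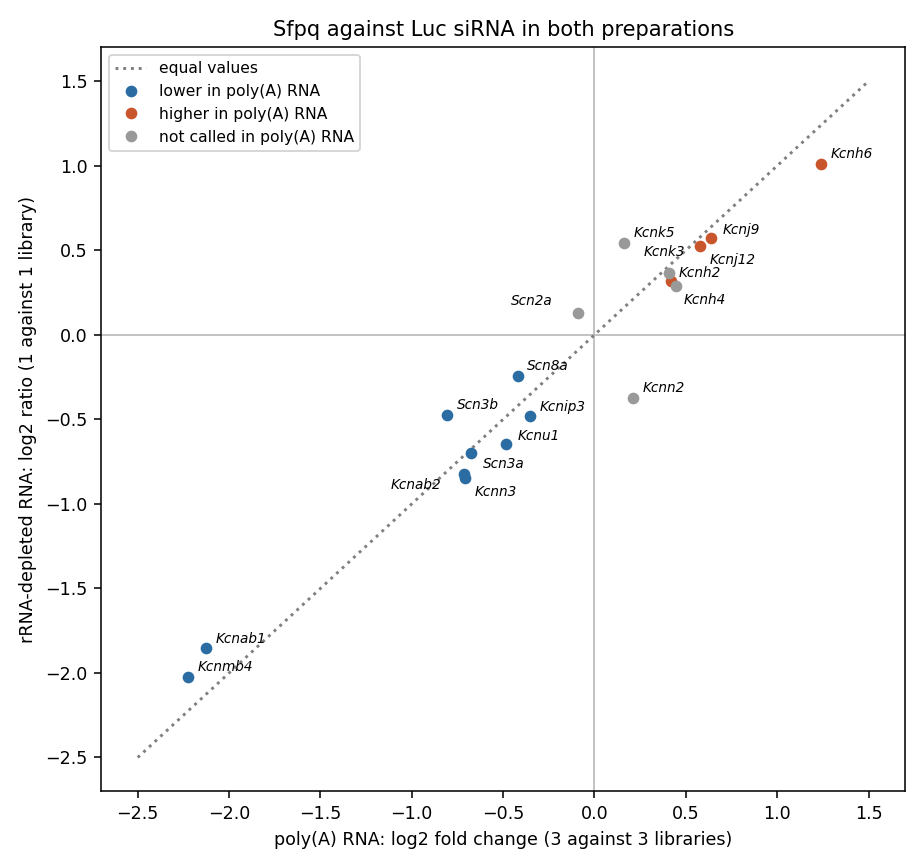
Poly(A) log2 fold change (x axis, 3 against 3 libraries) and rRNA-depleted log2 ratio (y axis, 1 against 1) of 18 of the 22 genes at or above 0.5 RPKM in both preparations, on log2(RPKM + 0.5); colours mark poly(A) calls and the dotted line equal values. Kcnmb4 and Kcnab1 stand alone at the lower left and Kcnh6 at the upper right, and the 13 called genes shown have the same sign on both axes.

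Summed RPKM over all genes of a class in the files, whether tested or not, weight each class by its abundant genes (mean ± SD, n = 3). The Kv1 to Kv4 and silent alpha genes summed to 3.86 ± 0.273 RPKM in Luc and 2.54 ± 0.301 in Sfpq libraries, and the sodium channel alpha genes to 5.06 ± 0.084 and 3.41 ± 0.303. For the inward rectifiers the Sfpq sum was the higher, at 3.76 ± 0.290 RPKM against 2.43 ± 0.425. For the Kv7, EAG, ERG and ELK genes the sums were 28.2 ± 4.76 and 35.6 ± 2.52 RPKM, of which Kcnh2 was the largest share, and for the two-pore-domain genes, led by Kcnk3, 9.8 ± 1.86 and 11.9 ± 1.11. The calcium- and sodium-activated genes, whose tested members moved in both directions, summed to 5.68 ± 0.452 and 5.32 ± 0.366 RPKM. These sums were not tested. All 110 genes together summed to 82.9 to 101.4 RPKM in Luc and 76.6 to 85.4 in Sfpq poly(A) libraries, ranges that overlapped.

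Proteins known to assemble with these channels but named otherwise were listed as well. Of 36 partner genes 19 were tested, of which 6 fell, 2 rose and 11 did not pass, with a median log2 fold change of -0.19. Over all tested genes 18.6% were called lower and 21.3% higher. Whether the partner counts differ from these shares was not tested. Dpp6, an auxiliary subunit of Kv4 channels, had 1.24, 1.28 and 1.46 RPKM in Luc libraries and 0.125, 0.143 and 0.154 after Sfpq knockdown, 10.6% of the Luc mean (log2 fold change -1.51, standard error 0.12, limma adjusted p = 2.28e-05). Of the other genes of Kv4 complexes, Kcnd1 and Kcnip3 also fell, although both of those calls were lost in some alternatives. The remaining listed genes of these complexes were under 0.5 RPKM, and whether such genes change together was not tested. Ank3, the ankyrin that anchors sodium and Kv7 channels at the axon initial segment, fell from 3.44, 3.86 and 3.82 to 1.53, 2.01 and 1.77 RPKM (log2 fold change -0.89, standard error 0.12, limma adjusted p = 0.000547). Lgi1, a secreted protein found in Kv1 complexes, fell by less (-0.62, limma adjusted p = 0.0101; 0.0732 with no filter), as did Vapb, of the family that tethers Kv2 channels to the endoplasmic reticulum (-0.74, limma adjusted p = 0.000591). Calm2, 1 of 3 calmodulin genes, had 119, 119 and 214 RPKM in Luc libraries and 59.2, 85.7 and 88.5 after Sfpq knockdown, with Luc replicate 3 well above the other controls (log2 fold change -0.92, standard error 0.24, limma adjusted p = 0.0131); its call ended without Sfpq replicate 1 (0.0638) and with no filter (0.142). Amigo1, an auxiliary protein of Kv2 channels, rose from 0.513, 0.472 and 0.305 to 1.04, 1.11 and 1.18 RPKM (log2 fold change 0.80, standard error 0.13, limma adjusted p = 0.00159). Voltage-gated calcium channel subunit genes (symbols starting with Cacn) were listed beside them, with 26 in the files and 11 tested. Of these 3 fell, 3 rose and 5 did not pass, with a median of 0.04. The all-gene shares are the same as those given above, and a difference from them was not tested. Whether the channel families differ from each other was not tested.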

How the data were processed

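RNA of 3 Luc and 3 Sfpq poly(A) libraries and of 1 library of each after rRNA depletion was sequenced on the Ion Proton system, per the labels' protocols; Pol II ChIP libraries were not analysed here. Groups and replicate numbers come from the sample titles; the description of Sfpq replicate 2 gives another number. Both the channel genes and the gene lists were chosen with earlier results of these data known.

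The deposited values are RPKM per RefSeq transcript, 1 file per library, per the file headers. TopHat2 2.0.10 and the build mm9 are named for the alignment, per the submitters' processing notes. What computed the RPKM, from which annotation, with which filters and how shared reads were treated: not given in the sources used here. Of 30978 transcripts per file, 30507 (98.5%) were named by identifier from a RefSeq table of GRCm38.p6, used for names only. Depth ratios came from the steps between values of at most 0.3 RPKM.

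The poly(A) comparison used limma 3.58.1 (R 4.3.3, trended prior) on log2(RPKM + 0.5). It covered the 11727 genes whose mean over 6 libraries reached 0.5 RPKM, and calls required an adjusted p (Benjamini-Hochberg, over all of these) under 0.05. Fold changes on this scale understate those of low genes. Standard errors of the 27 channel genes were 0.11 to 0.19. The rRNA-depleted libraries have log2 ratios only, on the scale above and with the same minimum. The fit was also run on simulated data, with independent normal noise for each gene and library. Those data lack the steps of low RPKM values and any shift shared by the genes of a library. They therefore cannot show how reliable the calls of low genes are here. Summaries and plots were made in Python 3.11.15 (pandas 2.3.3, numpy 2.4.6, matplotlib 3.10.9).

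All channel genes reaching 0.5 RPKM in either preparation could be named, with the 5 highest of the others; of the partner list, the called genes of at least 2-fold and the 5 next largest. A few genes are not reported here, although counts include them. Of 27 tested genes, 15 had a promoter in the RefSeq table, and 6 called ones had exactly 1. Alternatives were pseudocounts of 0.1 and 1, a minimum mean of 2 RPKM or no filter, a mean of 0.5 RPKM in either group (chosen after seeing the data), median-ratio scaling, quantile normalization, no trend, a replicate block, the mean of all transcripts of a gene, other ways to reach 0.5 RPKM, and leaving out each library.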

Additional observations from a re-analysis of the deposited data

How the results depend on the processing

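Of the 18 called genes, 10 kept their call in every alternative in which they were tested, 8 lost it in at least 1, and 0 reversed; 3 uncalled genes passed in at least 1 (Kcnab3 without trend, Kcnh4 and Kcnk3 with the block or without Luc replicate 2). Against 12 falls and 6 rises, a minimum mean of 2 RPKM left 6 and 1, from fewer genes tested, and with no filter there were 17 and 3. Leaving out a library gave 6 to 10 falls and 3 to 8 rises; the 6 came without Luc replicate 1 and the 3 without Sfpq replicate 2 or 3. The median log2 fold change was 0 with no filter, -0.13 at a minimum of 2 RPKM and 0.0012 with a mean of 0.5 RPKM in either group, and -0.13 to 0.15 when a library was left out. In rRNA-depleted RNA, 6 genes were at least 2-fold lower with a pseudocount of 0.1 and 4 with no filter, and 0 were at least 2-fold higher with a pseudocount of 1 or a minimum of 2 RPKM; the median was 0 with no filter and -0.14 at 2 RPKM. With 0.5 RPKM required in every library, 15 genes reached it in poly(A) RNA.

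A replicate block gave 11 falls and 8 rises. Deviations of same-numbered libraries correlated at 0.327, -0.035 and 0.157, and Luc replicates 2 and 3 correlated best with another number, so the numbers were not taken to pair the samples. RPKM gives only relative depth here, so values near 0 have no counting interval, and 1 library per group limits the rRNA-depleted ratios.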
